A study of Homo sapiens with 6 samples.

Results

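The PRMT1 knockdown libraries of 293T cells were compared directly with the MLL2 knockout libraries, gene by gene, with no control library in the contrast. The comparison took 4 of the 6 libraries of the series, 2 per group, and every gene that passed a filter on low counts, which left 17575 of the 60669 genes in each deposited table. 293T is a transformed human embryonic kidney line. The 2 knockout libraries came from 293T cells of genotype MLL2 knockout, made by CRISPR/Cas9 editing, the 2 knockdown libraries from 293T cells of genotype PRMT1 knockdown, in which a short hairpin RNA targeted PRMT1, and the 2 control libraries from wild-type 293T cells. The treatment entry is None for all groups, and stranded total RNA was sequenced from each. Neither the clonal origin of the knockout cells nor the time after delivery of the hairpin is given in the sources used here, and the tables' headers carry names (WTshNT, MKshNT, WTshPR) that the labels do not explain. Whether control and knockout cells carried a hairpin was therefore not settled. A difference between the groups can belong to either target, to the way either line was made or to traits of a clone, and these cannot be told apart in this design.

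PRMT1 is the main enzyme that places asymmetric dimethyl marks on arginine residues, on histone H4 and on many RNA-binding proteins. The name MLL2 has stood for KMT2B as well as KMT2D, which are large SET-domain enzymes that methylate lysine 4 of histone H3 at promoters and enhancers within COMPASS complexes. The direct contrast addresses where loss of the methyltransferase PRMT1 and loss of MLL2, which the series title places downstream of it, leave the cells with different transcript levels.

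The libraries held between 20061471 and 22351532 counts in genes. Levels are given for both libraries of a group, with the knockout ahead of the knockdown where 2 pairs are joined by "against" or "to". They are in CPM, a gene's counts relative to the scaled size of the library. Changes are the log2 of knockdown over knockout with the standard error (SE) of edgeR's quasi-likelihood fit, and calls were made below 0.05 after Benjamini-Hochberg adjustment of p. The labels call the libraries biological replicates without naming separate cultures, so p-values reflect how far these particular samples varied. For the 11509 genes averaging more than 2 in log2 CPM, the SD of the log2 difference between replicates was 0.262 for the knockdown, 0.199 for the knockout and 0.195 for the control libraries. The knockdown libraries had a count in 24518 and 25780 genes and the knockout libraries in 22865 and 23041. Of 9 markers fixed for 293T cells, PAX2 stayed under 1 CPM throughout, and TERT was at 0.832 CPM in knockout replicate 1. Vimentin, KRT8, KRT18, NEFL, NEFM, LIN28B and IGF2BP1 were above 1 CPM in all libraries. KRT8 had 31 and 37.7 CPM in the controls, 6.38 and 6.43 in the knockout and 7.01 and 6.76 in the knockdown. NEFM had 92.9 and 82.2, 20.7 and 22.5, and 21.6 and 36.3 in the same order. Of 25 markers of blood, endothelium, fibroblasts, liver, pluripotent cells and kidney tubule, 20 or 21 lay under 1 CPM in each library. CD3E, TTR, POU5F1, NANOG and UMOD had no count in any library. The summed level of the 25 was 36.3 and 30.8 CPM in knockout and 86.6 and 116 in knockdown libraries, most of it from LRP2, an endocytic receptor of the kidney tubule. In bulk RNA, fewer cells of a type and less RNA per cell cannot be told apart.

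On hg38 the deposited annotation places PRMT1 at chr19:49675786-49689029, KMT2D at chr12:49018975-49059774 and KMT2B at chr19:35717973-35738878. The targeted gene PRMT1 stood at 406 and 425 CPM in the knockout libraries, 38.2 and 34.9 in the knockdown libraries and 306 and 319 in the controls. Knockdown libraries lay far below all others, 11.4-fold under the knockout (log2 change -3.51 ± 0.09 SE, n = 2 per group, adjusted p = 2.1e-16). KMT2D, the enhancer-linked H3K4 monomethyltransferase, had 20.8 and 24.2 CPM in the knockout, 37.8 and 95.5 in the knockdown and 22.5 and 17 in the control libraries. KMT2B, its paralog at promoters, had 7.12 and 7.36, 13.4 and 26.7, and 6.74 and 7.53 CPM in the same order. Both rose in the knockdown against the knockout, KMT2D with a log2 change of 1.57 ± 0.25 and KMT2B with 1.47 ± 0.24 (adjusted p = 3.9e-05 and 4.7e-05), and the control levels of both lay beside those of the knockout. Knockdown replicate 2 was the higher of its pair for both genes by more than the gap between the other pairs. Without it the log2 changes were 0.75 for KMT2D and 0.89 for KMT2B (edgeR adjusted p = 1.6e-04 and 0.0022). Counts over a whole gene do not show a small CRISPR edit, so these levels do not check which of the paralogs was edited.

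The groups differed at 7154 genes, 40.7% of those tested, with 3401 higher in the knockdown (19.4%) and 3753 lower (21.4%). At an unadjusted p under 0.05 the number was 8440. A change of at least 2-fold was called upward in 1041 genes (5.92%) and downward in 959 (5.46%), and the upward number was 664 without knockdown replicate 2. By less than 0.5 on the log2 scale moved 1070 of the higher and 1244 of the lower genes, by 0.5 to 1 moved 1290 and 1550, and by more than 3 moved 185 and 81. The median over all tested genes was 0.01. Libraries of the groups did not overlap at 12296 genes (70%), so that non-overlap alone was the common case. Every called gene named below also had groups that did not overlap.

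**Figure D1:**
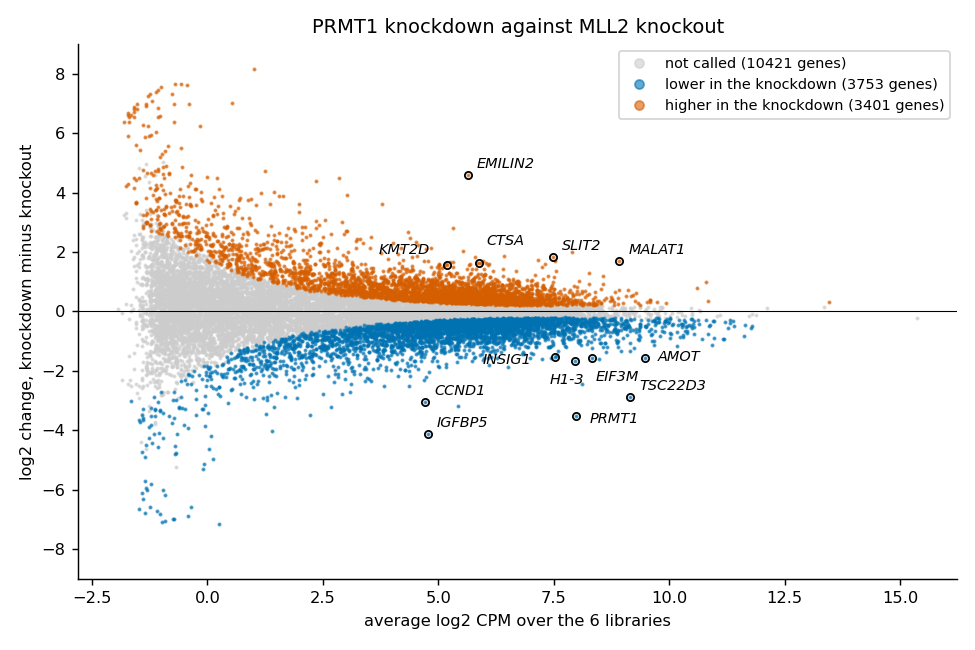
Log2 change of each of the 17575 tested genes, knockdown minus knockout, against its average log2 CPM over the 6 libraries, with called genes coloured by direction and some named genes circled. EMILIN2 (4.57), PRMT1 (-3.51), CCND1 (-3.04) and TSC22D3 (-2.88) are circled well outside the bulk of genes of like level.

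Among coding genes higher in the knockdown, the matrix glycoprotein EMILIN2 combined a large change with a high level. EMILIN2 measured 5.18 and 6.28 CPM in the knockout, 7.14 and 7.14 in the control and 132 and 141 in the knockdown libraries, a 23.8-fold difference (log2 change 4.57 ± 0.13, adjusted p = 4.1e-16). The fatty acid carrier FABP5 had 0.277 and 0.491 CPM in the knockout and 8.95 and 8.6 in the knockdown (4.50 ± 0.32), with 13.4 and 11.1 in the controls. SYT16, of the synaptotagmin family of membrane trafficking proteins, had 0.277 and 0.54 against 8.61 and 8.69 CPM (4.40 ± 0.39) beside control levels of 7.44 and 4.43. For FABP5 and SYT16 it was the knockout libraries that stood apart in level from the other 4, while for EMILIN2 it was the knockdown libraries. KLHL4, of the kelch-like family, went from 0.231 and 0.0981 to 5.9 and 3.25 CPM (4.73 ± 0.57, or 5.46 without knockout replicate 1).

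The other large upward changes belonged to genes with few counts. PKP3, a plakophilin of desmosomes, had no count in the knockout libraries, 1.26 and 2.15 CPM in the knockdown and 4.89 and 3.35 in the controls, at least 11.9-fold higher than a floor of 3 counts per library. MKRN3, an imprinted ubiquitin ligase gene that restrains puberty onset, likewise had no count in the knockout but 0.87 and 1.54 CPM in the knockdown, at least 8.42-fold higher. The zinc finger gene ZNF813 had 75 counts in the knockdown against 3 in the knockout, a ratio of 24.2 with an exact binomial 95% interval from 7.96 to 119.8. The sperm surface protease gene ADAM20 had 66 against 3 (21.3, 6.97 to 106) and the cyclic nucleotide phosphodiesterase PDE2A had 58 against 3 (18.7, 6.09 to 93.3). FOXD4L1, a forkhead gene with near-identical copies and so of uncertain count, had 0.0462 and 0.196 CPM in the knockout and 2.32 and 1.76 in the knockdown (4.02 ± 0.97), a change of 3.34 without knockout replicate 1 and 5.29 without replicate 2. These intervals and floors cover counting error only. MKRN3, ADAM20, PDE2A and FOXD4L1 passed the count filter through the knockdown libraries alone, the group where they were high.

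Downward, the IGF-binding protein IGFBP5 measured 43.2 and 46 CPM in the knockout, 33 and 36 in the control and 2.18 and 2.85 in the knockdown libraries, 17.6-fold lower in the knockdown (log2 change -4.14 ± 0.16, adjusted p = 1.7e-13). The matrix glycoprotein tenascin C (TNC) had 8.6 and 10.5 CPM in the knockout and 1.26 and 0.79 in the knockdown (-3.22 ± 0.30), with 9.43 and 7.43 in the controls. In both genes the knockdown libraries were the ones that stood apart. PDE3A, a phosphodiesterase that degrades cAMP, had 9.71 and 12.4 CPM in the knockout, 1.16 and 0.79 in the knockdown (-3.50 ± 0.32) and 1.8 and 1.77 in the controls. DOK6, an adaptor of the RET receptor, had 6.24 and 5.4, 0.725 and 0.527, and 1.85 and 1.13 CPM in that order (-3.21 ± 0.42). PDE3A and DOK6 thus had their highest levels in the knockout libraries. FGFBP1, a secreted carrier of fibroblast growth factors, had 2.54 and 2.26 CPM in the knockout and 0.145 and 0.176 in the knockdown (-3.85 ± 0.77), with 0.0499 and 0 in the controls. It passed the count filter through the knockout libraries alone, the group where it was high.

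Further genes lower in the knockdown were weakly expressed. The prostaglandin F receptor PTGFR had 77 counts in the knockout and 2 in the knockdown, a ratio of 39.8 with an interval from 10.7 to 335. LHX1, a LIM homeobox gene of kidney development, had 1.76 and 1.82 CPM in the knockout and 0.0484 and 0.132 in the knockdown (-4.20 ± 0.85). TMEM35A, a chaperone of nicotinic receptors, had 0.971 and 1.13 against 0.0967 and 0.0878 CPM (-3.43 ± 0.82), and the T-type calcium channel gene CACNA1G had 1.06 and 1.32 against 0.193 and 0.0439 (-3.30 ± 0.84). Without knockdown replicate 2 the changes of LHX1 and CACNA1G were -5.04 and -2.59, and without knockdown replicate 1 that of CACNA1G was -4.59. PRR16 (-3.51 ± 1.07) and ISM1 (-3.50 ± 0.97) were also among the 12 coding genes, with -4.35 and -7.50 without knockdown replicate 2 and, for ISM1, -2.59 without replicate 1. Only through the knockout libraries, where it was high, did PRR16 pass the count filter. PRR16 lost its call without knockout replicate 2 (adjusted p = 0.073) and without knockdown replicate 1 (0.073), and ISM1 without knockdown replicate 1 (0.057). Among noncoding genes with the largest changes, GNAS-AS1, the antisense RNA of the imprinted GNAS locus, had no count in the knockout but 1.31 and 1.01 CPM in the knockdown, at least 8.1-fold higher. LDHAL6FP, a pseudogene, and ENSG00000278493 were at least 7.75 and 8.34-fold higher, and both passed the count filter through the knockdown libraries alone. DGCR5, LINC01389 and ENSG00000254343 were lower, with 1, 2 and 2 counts in the knockdown against 48, 68 and 54 in the knockout. Knockout over knockdown ratios were 49.7 (95% interval 8.5 to 2002), 35.2 (9.37 to 296) and 27.9 (7.37 to 237) in the same order.

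**Figure D2:**
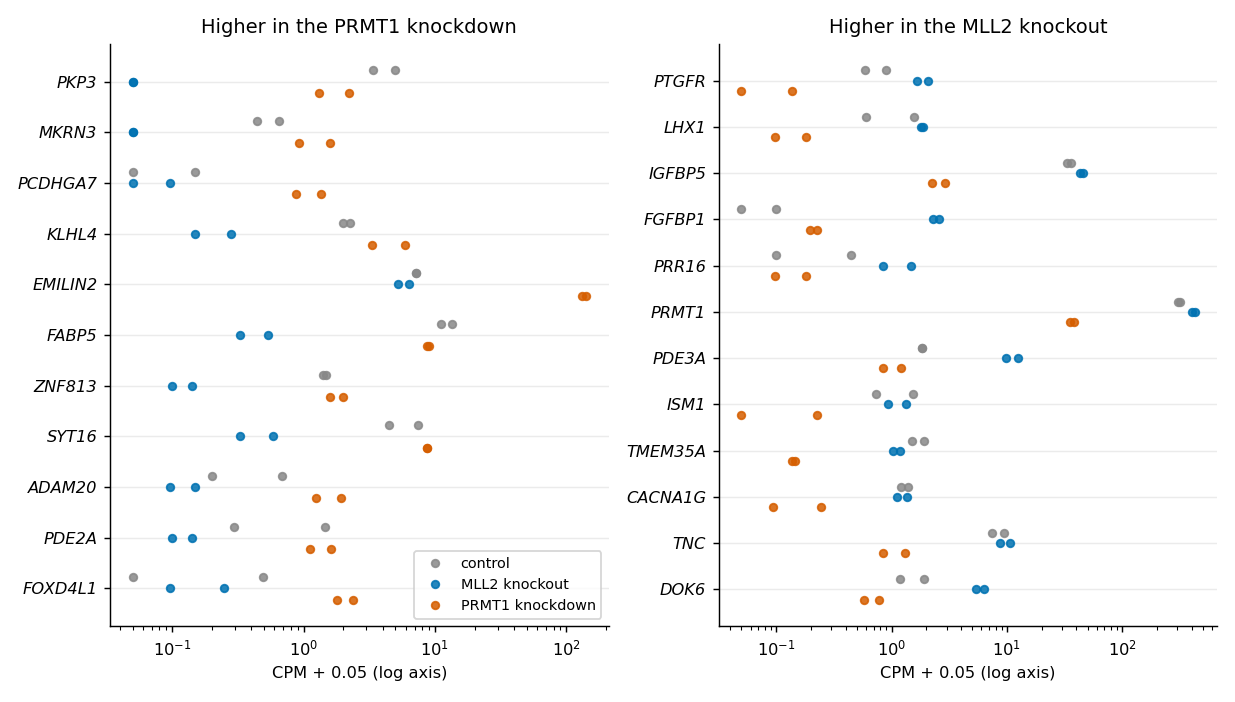
CPM plus 0.05 on a log axis in each of the 6 libraries for named coding genes per direction with the largest called changes, each dot a library. For EMILIN2, IGFBP5 and TNC the knockdown libraries lie apart from the other groups, and for FABP5, SYT16 and ZNF813 the knockout libraries do.

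Arginine methyltransferase genes were lower in the knockdown or not called, and most called genes of H3K4 methyltransferase complexes were higher. Of 10 tested arginine methyltransferase genes (11 listed), 6 were called lower in the knockdown and 0 higher, with a median of -0.30 against 0.01 for all genes (21.4% of all tested genes were lower and 19.4% higher). The 6 include PRMT1, the target of the hairpin, whose lower call checks the knockdown and is no result about the group. With each library's counts corrected for exon length and GC content, 5 were lower and the median was -0.25. Besides PRMT1 the 6 included PRMT6, a nuclear enzyme for histone H3 arginine 2, with 84 and 83.1 CPM in the knockout against 57.3 and 48.6 in the knockdown (-0.66 ± 0.10), and PRMT3, which acts on a ribosomal protein, at 112 and 113 against 83.2 and 77.3 (-0.49 ± 0.09). PRMT9, which methylates a splicing factor, had -0.56 ± 0.12. Of 20 genes for H3K4 methyltransferases and their partners, 11 were higher and 3 lower, with a median of 0.34 (0.22 after each library's counts were corrected for exon length and GC content). All catalytic members named here moved upward, with KMT2C at 107 and 129 CPM in the knockout against 227 and 319 in the knockdown (1.21 ± 0.13), SETD1A at 10.9 and 12.3 against 17.3 and 26.8 (0.93 ± 0.19), and KMT2A at 44.8 and 53.7 against 62.7 and 101 (0.74 ± 0.15). HCFC1, a scaffold that joins SETD1 and KMT2 complexes, had 28.2 and 37.2 against 58.1 and 115 CPM (1.41 ± 0.20). KMT2A was not called after the length and GC correction (log2 change 0.20), and SETD1B, at 3.88 and 3.04 against 4.69 and 15.1 CPM (1.52 ± 0.39), was not called without knockdown replicate 2 (log2 change 0.44, adjusted p = 0.41) and had a change of 2.12 without replicate 1. Lower members were PAGR1, a subunit of the KMT2C and KMT2D complexes (65.6 and 62.8 to 30.1 and 29.8 CPM, -1.10 ± 0.10), and PSIP1, a chromatin tether (229.8 and 215 to 149 and 119.9 CPM, -0.73 ± 0.09). The core subunit ASH2L was also lower. In KMT2A, KMT2B, KMT2C, KMT2D, SETD1A and SETD1B alike, knockdown replicate 2 was the higher of its pair.

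Replication-dependent histone genes had the lowest median of the 39 gene lists. These genes supply nucleosomes in S phase, and their messages end in a stem-loop in place of a poly(A) tail. Of 49 tested genes (59 listed), 41 were lower in the knockdown and 1 higher, with a median of -0.86, or -0.54 after the length and GC correction. Their summed level was 17994 and 17329.9 CPM in the knockout, 10001 and 8584 in the knockdown and 21541 and 22620.5 in the control libraries, with no overlap between the groups. Linker histone H1-3 had 336 and 305 CPM in the knockout and 109 and 94 in the knockdown (-1.66 ± 0.09, adjusted p = 3.6e-11). H3C12 had 97.5 and 87.2 against 32.5 and 31.2 CPM (-1.54 ± 0.10), H2BC13 had 207 and 198 against 86.2 and 74.3 (-1.33 ± 0.09), and H3C10 had 644 and 628 against 281 and 261 (-1.23 ± 0.08). H2BC3, chosen after its values were seen, had 20 and 14 counts in the knockout libraries and 0 in the knockdown, at least 5.82-fold lower, and the exception was H1-1, with 0 counts in the knockout and 4 and 12 in the knockdown libraries, at least 2.52-fold higher. H1-1 lost its call without either knockout library (adjusted p = 0.071 and 0.065) and without knockdown replicate 2 (0.11). The 41 tested members on chromosome 6 had a median of -0.93 and the 8 elsewhere a median of -0.72, with 34 and 7 called lower. H2AZ1, a replacement variant with a polyadenylated message outside that list, also fell (746 and 695 to 316 and 259 CPM, -1.32 ± 0.09). Histone genes share near-identical sequence, and reads placed equally well in several copies fail the mapping quality minimum of 10, so the counts hold the reads that could be placed.

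Promoters of the histone genes were read because 41 members moved the same way. The octamer ATTTGCAT, the site of the POU factor OCT1, was searched on both strands in the 250 bases before each gene's start, in RefSeq sequence of GRCh38.p14. It stood in 20 of the 45 tested histone genes with a promoter sequence (44.4%) and in 163 of the 11823 promoters of tested genes (1.38%). Of the 20 with the octamer, 16 were lower and 0 higher, with a median of -0.91, and of the 25 without, 21 were lower and 1 higher, with a median of -0.77. Shown are 2 promoters with the octamer, those of its called carriers with the largest changes at an average log2 CPM above 2. They are given 5′ to 3′ on the strand of the gene, with the octamer or its reverse complement in capitals. H2BC7 fell from 47.5 and 44.2 to 19.4 and 17.9 CPM (-1.30 ± 0.12) and H2AC21 from 123 and 127 to 54.3 and 53.9 (-1.21 ± 0.09).
H2BC7, chr6:26199266-26199515 on the plus strand, octamer beginning at -111 from the start: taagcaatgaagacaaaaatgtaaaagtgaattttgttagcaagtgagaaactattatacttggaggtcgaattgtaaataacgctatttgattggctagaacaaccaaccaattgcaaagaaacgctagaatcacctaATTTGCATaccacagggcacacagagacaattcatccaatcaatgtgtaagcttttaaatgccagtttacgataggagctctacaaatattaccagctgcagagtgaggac
H2AC21, chr1:149887966-149888215 on the minus strand, octamer beginning at -208 from the start: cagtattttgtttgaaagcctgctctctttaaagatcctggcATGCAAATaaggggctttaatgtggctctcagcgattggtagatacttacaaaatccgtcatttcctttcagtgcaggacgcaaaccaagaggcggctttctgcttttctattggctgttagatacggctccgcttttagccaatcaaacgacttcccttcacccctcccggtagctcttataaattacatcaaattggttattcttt

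Genes of cholesterol synthesis and uptake were lower almost throughout. Of 26 tested (27 listed), 22 were called lower and 0 higher, with a median of -0.61 (-0.49 corrected). INSIG1, the sterol sensor that holds the SREBP activation complex in the endoplasmic reticulum, measured 200.4 and 201 CPM in the knockout, 76 and 62.9 in the knockdown and 295 and 275 in the controls (-1.53 ± 0.09, adjusted p = 1.8e-10). HMGCS1, a synthase early in the pathway, had 151 and 152 against 61.1 and 57.3 CPM (-1.36 ± 0.09). TM7SF2, a sterol reductase, had 28.9 and 32.3 against 8.37 and 9.04 (-1.81 ± 0.15), and FDPS, which makes farnesyl diphosphate, had 334 and 326 against 178 and 161 (-0.96 ± 0.08). SQLE, the squalene epoxidase, had 173 and 182 against 125 and 114 (-0.57 ± 0.09).

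The pentamer CCAAT, the site of NF-Y, a partner of SREBP at sterol genes, was found on either strand in 15 of 20 tested promoters of this group (75%) and in 35.19% of all promoters of tested genes. Members with it had a median of -0.63 and 13 lower calls, and the 5 without it a median of -0.64 and 4 lower calls. The promoters of the INSIG1 and TM7SF2 genes are given because these genes had the largest downward changes of the group, with the pentamer, here as its reverse complement ATTGG, in capitals.
INSIG1, chr7:155297628-155297877 on the plus strand, pentamer beginning at -170 from the start: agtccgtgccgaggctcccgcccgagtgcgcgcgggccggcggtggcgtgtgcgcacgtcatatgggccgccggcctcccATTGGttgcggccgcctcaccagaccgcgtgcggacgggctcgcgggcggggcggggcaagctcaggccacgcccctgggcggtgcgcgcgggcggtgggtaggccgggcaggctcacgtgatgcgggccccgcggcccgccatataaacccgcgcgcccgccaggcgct
TM7SF2, chr11:65111622-65111871 on the plus strand, pentamer beginning at -74 from the start: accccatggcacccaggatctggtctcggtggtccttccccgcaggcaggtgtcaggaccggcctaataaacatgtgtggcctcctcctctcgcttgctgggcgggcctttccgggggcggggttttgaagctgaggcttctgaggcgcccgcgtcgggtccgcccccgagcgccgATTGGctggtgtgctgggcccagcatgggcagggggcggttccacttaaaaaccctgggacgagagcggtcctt

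In the amino acid response, the program driven by the stress factor ATF4, 29 of 50 tested genes were lower and 6 higher, with a median of -0.37 (-0.31 corrected). PCK2, the mitochondrial PEP carboxykinase, had 144 and 150.4 CPM in the control, 33.6 and 26.6 in the knockout and 10.1 and 9.26 in the knockdown libraries (-1.64 ± 0.13, adjusted p = 3.1e-09). DDIT4, an inhibitor of mTORC1, ran from 219.6 and 231 over 88.4 and 88.7 to 34.3 and 31.7 CPM (-1.42 ± 0.09), and PHGDH, the entry enzyme of serine synthesis, from 625 and 647 over 366 and 331 to 154 and 148 (-1.21 ± 0.08). In all of these genes the knockout libraries lay between the controls and the knockdown. The tRNA synthetase EPRS1 had 857 and 848 against 452 and 404 CPM (-0.99 ± 0.08), and ATF4 itself had 1293 and 1229.9 against 775 and 672 (-0.80 ± 0.09). Among the 6 higher members was the arginine and lysine carrier SLC7A3, with 0.0462 and 0.294 CPM in the knockout, 3.05 and 2.19 in the knockdown and 21 and 22 in the controls (3.92 ± 0.46). Its change was 3.12 without knockout replicate 1 and 5.65 without replicate 2. The stress factor DDIT3, also known as CHOP, was higher too, at 13.7 and 12.7 against 31.7 and 26.5 CPM (1.14 ± 0.15). ASNS, asparagine synthetase, had 4.81 and 3.48 against 1.4 and 2.5 CPM (-1.08 ± 0.29) and lost its call without knockout replicate 1 (adjusted p = 0.084) or knockdown replicate 1 (0.057).

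The composite site TGATGNAA, which ATF4 and a C/EBP partner bind together, was found in 5 of 41 promoters of this group (12.2%) against 1.4% of all. Of those 5 genes 3 were lower and 1, ATF3, was higher. The ASNS promoter is printed as the known example of such a site, in capitals.
ASNS, chr7:97872409-97872658 on the minus strand, site beginning at -68 from the start: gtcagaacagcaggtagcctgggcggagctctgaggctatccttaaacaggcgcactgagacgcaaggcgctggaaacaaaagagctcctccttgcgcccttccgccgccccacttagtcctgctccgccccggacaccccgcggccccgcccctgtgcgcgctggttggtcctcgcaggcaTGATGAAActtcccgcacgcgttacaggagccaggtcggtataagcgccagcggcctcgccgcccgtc

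Glycolysis and hypoxia genes were lower in 20 of 34 tested cases and higher in 5 (3 without knockout replicate 1), with a median of -0.46 (-0.45 corrected). Among glycolytic enzymes, TPI1 fell from 1507 and 1431 to 709.8 and 616 CPM (-1.15 ± 0.09), LDHA from 1026 and 971 to 520.001 and 480.5 (-0.997 ± 0.08) and GAPDH from 1913 and 1905 to 1201 and 1069 (-0.75 ± 0.08). So did MXI1, a MYC antagonist (65.6 and 59.9 to 24.7 and 23.1, -1.39 ± 0.11), P4HA1, a collagen prolyl hydroxylase subunit (98.7 and 92.3 to 41.6 and 35.9, -1.30 ± 0.10), and the angiogenic factor VEGFA (66.6 and 68.9 to 36.2 and 36, -0.91 ± 0.10). The vasodilator peptide gene ADM went the other way, from 14.1 and 15 to 48.7 and 45.8 CPM (1.70 ± 0.13, adjusted p = 2.6e-09). HIF1A, the oxygen-regulated subunit of the hypoxia factor, was higher by a small amount (0.33 ± 0.09) and was not called without knockout replicate 1 (adjusted p = 0.091).

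Subunits of the ribosome and of the respiratory chain fell by smaller amounts. Of 78 cytosolic ribosomal protein genes 54 were lower and 3 higher (median -0.33, corrected -0.18), of 42 mitochondrial ones 23 lower and 3 higher (-0.34, corrected -0.05), and of 49 nuclear-encoded respiratory chain genes 28 lower and 5 higher (-0.35, corrected -0.13). Without knockout replicate 1 the lower cytosolic ribosomal genes numbered 33. The 3 higher ones were 1 without knockout replicate 2 and 6 without knockdown replicate 2, the 3 higher mitochondrial ones 1 without knockout replicate 2 and 0 without knockdown replicate 1, and the 5 higher respiratory ones 9 without knockdown replicate 2. After the length and GC correction 13 mitochondrial ribosomal genes were lower and 7 higher. RPL13A had 2428 and 2404 CPM in the knockout and 1356 and 1187 in the knockdown (-0.93 ± 0.09), and RPL24 1216 and 1174 against 679 and 605 (-0.90 ± 0.08). The complex IV subunit COX5B fell from 155 and 149 to 63.7 and 51.9 CPM (-1.40 ± 0.10), while its fellow subunit COX7C rose from 135 and 132 to 276 and 223 (0.90 ± 0.10). MRPL40 of the mitochondrial large ribosomal subunit had 107 and 104 against 54.4 and 45.1 CPM (-1.09 ± 0.10). Of 13 genes of the mitochondrial genome, MT-CO3 was lower (-0.64 ± 0.08) and MT-CO1 higher (0.39 ± 0.09), and their median of -0.34 changed to 0.01 with the correction. MT-CO1 lost its call without knockout replicate 1 (adjusted p = 0.052), and 2 of the 13 were lower without knockdown replicate 1.

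The histone and ribosomal groups include many short genes, and the comparison as a whole varied with exon length. Over the genes averaging more than 2 in log2 CPM, the median change was -0.40 for merged exon lengths under 1000 bases and 0.14 in the longest of 5 length classes. The difference between the knockdown libraries themselves ran the same way, with medians of -0.22 and 0.09 for replicate 2 minus replicate 1, against -0.08 and 0.02 for the knockout libraries. After the correction the medians of the length classes lay between -0.07 and 0.02. The correction was fitted to exon length in each library over genes of this level, so flat medians follow from how it is made. It would also take out a real difference that goes with length. The median exon length was 731 bases for the histone list and 3066 for the cytosolic ribosomal proteins. The part of length in the results of these groups was not tested beyond the corrected medians printed beside them.

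**Figure D3:**
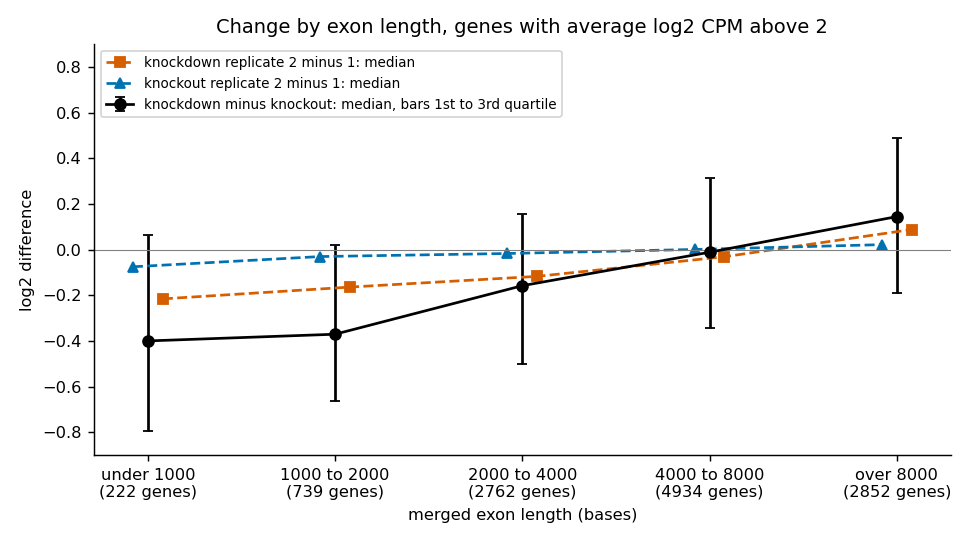
Median log2 difference by merged exon length in 5 classes, for the knockdown minus the knockout (black, bars from the 1st to the 3rd quartile of genes) and between the replicates of each group (dashed). The medians of the knockdown against the knockout climb from -0.40 to 0.14 and those between the knockdown libraries from -0.22 to 0.09.

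RNA-processing genes, among which are many known substrates of PRMT1, were called in both directions, as were all tested genes (19.4% higher and 21.4% lower). The shares were 17.9% and 56.4% for SR and hnRNP splicing genes. For translation factors they were 23.7% and 34.2%, and for ribosome biogenesis 15% and 40%. Of 39 genes for SR proteins and hnRNPs, which direct splicing, 22 were lower and 7 higher (4 without knockdown replicate 2), with a median of -0.30 (-0.27 corrected). HNRNPR had 424 and 426 CPM in the knockout and 268 and 237 in the knockdown (-0.75 ± 0.08), HNRNPA1 1497 and 1505 against 1002 and 890.5 (-0.67 ± 0.08) and SRSF2 463 and 459 against 324 and 299 (-0.56 ± 0.08). SRRM2, a scaffold of nuclear speckles, rose from 31.3 and 42.7 to 73.1 and 166 CPM (1.69 ± 0.22), with replicate 2 far above replicate 1 in the knockdown and a change of 0.98 without replicate 2. Of 38 translation factors 13 were lower and 9 higher (14 higher without knockdown replicate 2), with a median of -0.04 that lay between -0.11 and 0.02 over all settings. EIF3M, an initiation factor subunit, fell from 421 and 397 to 148 and 129 CPM (-1.56 ± 0.09, adjusted p = 6.7e-11), and PABPC1, the cytoplasmic poly(A)-binding protein, rose from 97.7 and 107 to 221 and 299.6 (1.34 ± 0.11). Of 40 ribosome biogenesis genes 16 were lower (10 with either knockout library left out) and 6 higher (median -0.09, corrected 0.02), with fibrillarin (FBL) at 129 and 121 against 70.4 and 71.3 CPM (-0.82 ± 0.09) and RRN3, a cofactor of RNA polymerase I, at 84.3 and 83 against 41.9 and 37.7 (-1.07 ± 0.10).

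Of 26 genes of endoplasmic reticulum chaperones and the unfolded protein response, 13 were lower and 7 higher (median -0.27), led by the disulfide isomerase PDIA4 (602 and 627 to 309 and 289 CPM, -1.04 ± 0.08) and the chaperone HSP90B1 (799.9 and 798 to 471 and 453, -0.79 ± 0.08). Cytosolic heat shock genes had 8 lower and 3 higher of 19 (median -0.09), and proteasome genes 7 lower and 3 higher of 31 (median -0.07). Of the proteasome genes 22.6% were lower, near the 21.4% of all tested genes, and 9.68% higher, against 19.4% of all. After the length and GC correction 7 proteasome genes were lower and 10 higher. Without knockdown replicate 2 there were 5 higher heat shock and 8 higher proteasome genes, without knockdown replicate 1 there were 12 lower proteasome genes, and without knockout replicate 1 there was 1 higher. PSMD2, a scaffold subunit of the regulatory particle, measured 284 and 272 against 135 and 133 CPM (-1.05 ± 0.08). By contrast, 19 of 40 lysosome and autophagy genes were higher and 7 lower, with a median of 0.31 (0.28 corrected). Cathepsin A (CTSA) rose from 37.3 and 36.6 to 117 and 109 CPM (1.61 ± 0.10, adjusted p = 1.5e-10) and the lysosomal membrane glycoprotein LAMP1 from 42.8 and 38.3 to 125 and 115 (1.56 ± 0.11). GLA, the alpha-galactosidase, was an exception and fell from 416 and 409.8 to 186 and 162 CPM (-1.25 ± 0.09).

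**Figure D4:**
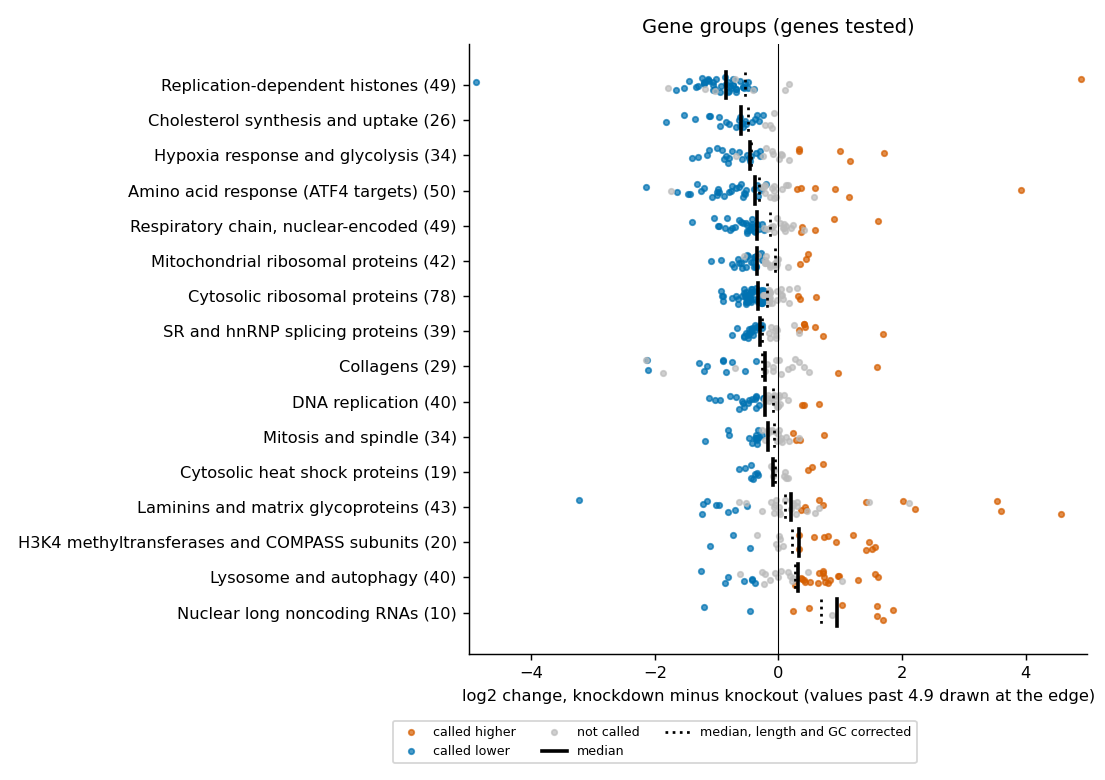
Log2 change of each tested gene in 16 groups, knockdown minus knockout, with the group's median as a solid bar and its median after the length and GC correction as a dotted bar; points past 4.9 are drawn at the edge. Histone genes have the lowest median (-0.86, corrected -0.54) and nuclear long noncoding RNAs the highest (0.94, corrected 0.69).

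Cell cycle genes showed opposite changes at the G1 step. Cyclin D1 (CCND1), the activator of CDK4 and CDK6, fell from 43.6 and 43.2 to 6.09 and 4.48 CPM, 8.23-fold (-3.04 ± 0.16, adjusted p = 1.8e-11), with 27.9 and 31.7 in the controls. Its kinase partner CDK6 rose from 81.4 and 83 to 265 and 279 CPM (1.73 ± 0.09), with 82.3 and 73.4 in the controls. MYC was lower (127 and 123 to 62.3 and 63.5, -0.99 ± 0.09), as was the inhibitor CDKN2C (-0.82 ± 0.11). In all, 8 of 15 G1 genes were lower and 3 higher (median -0.28). Of 40 DNA replication genes 19 were lower and 3 higher (median -0.22, corrected -0.09, 1 higher without knockout replicate 1), with the licensing factor CDC6 at 269.8 and 282 against 147 and 141 CPM (-0.94 ± 0.08) and cyclin E1 (CCNE1) at 51 and 48.8 against 26.4 and 19.8 (-1.12 ± 0.13). The helicase subunit MCM5 was higher (293 and 274 to 465 and 433, 0.66 ± 0.08). Of 34 mitotic genes 14 were lower and 4 higher (1 higher with either knockout library left out, median -0.17), among them the cytokinesis motor KIF23 (210.01 and 221 to 94.2 and 94.8 CPM, -1.19 ± 0.08) on the lower side and the checkpoint kinase TTK (102 and 96.8 to 184 and 149, 0.74 ± 0.10) on the higher. Genes of the p53 response had 12 of 30 higher (40%) and 8 lower (26.7%, median 0.08, from -0.03 to 0.21 over the settings). Over all tested genes 19.4% were higher and 21.4% lower, so calls in both directions were no trait of that group. The shares were 20% and 53.3% for G1 genes, 7.5% and 47.5% for DNA replication genes and 11.8% and 41.2% for mitotic genes. ZMAT3, an RNA-binding target of p53, had 13.6 and 14.4 against 36.8 and 38.4 CPM (1.43 ± 0.14), and SPATA18, which acts in mitochondrial quality control, had 11.8 and 11.8 against 2.8 and 3.69 (-1.86 ± 0.22).

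Nuclear long noncoding RNAs were mostly higher in the knockdown. Of 10 tested nuclear long noncoding RNAs, 7 were higher and 2 lower, with a median of 0.94 (0.69 corrected). MALAT1, a speckle RNA, stood at 250.2 and 253 CPM in the knockout, 692 and 926 in the knockdown and 409 and 372 in the controls (1.69 ± 0.11, adjusted p = 2.6e-10). NEAT1, the scaffold of paraspeckles, had 27.6 and 27.5 against 59.6 and 107 CPM (1.60 ± 0.17), and KCNQ1OT1, the imprinting RNA of the KCNQ1 locus, had 41.1 and 51.9 against 127 and 207 (1.85 ± 0.16, 0.80 after correction). HOTAIRM1 and OIP5-AS1 were lower. Among 227 tested sense-intronic transcripts, which lie within introns of other genes, 51 were higher and 3 lower, with a median of 0.94. Without knockdown replicate 2 these were 28 and 1 with a median of 0.69, and without knockout replicate 1 they were 36 and 1. Their summed level was 253 and 278 CPM in the knockout, 257 and 245 in the control and 421 and 529 in the knockdown libraries, without overlap. Of 907 lincRNA genes 130 were higher and 73 lower (median 0.15, with 46 lower without knockout replicate 1 and 48 without replicate 2), while for the 13328 coding genes the numbers were 2855 and 3496 (median -0.03). Over all tested genes 19.4% were higher and 21.4% lower. Higher calls of sense-intronic transcripts were near that share and those of lincRNA genes below it, while lower calls of both were below theirs. A gene could pass the count filter through a single group, and the knockdown libraries had a count in the most genes. The split, median and sum of sense-intronic transcripts can thus be shaped by the filter and are not a result about them. Host genes of small nucleolar RNAs were higher in 8 of 20 cases and lower in 3 (median 0.15), as in SNHG7 (84.1 and 91.6 to 159 and 143 CPM, 0.78 ± 0.09) and GAS5 (353 and 347 to 535 and 453, 0.50 ± 0.09). Knockdown replicate 2, with a count in 25780 genes against 24518 in replicate 1, also had the higher sense-intronic sum and the higher levels of MALAT1, NEAT1 and KCNQ1OT1, and the part of such RNA in these results was not tested.

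Extracellular matrix and adhesion genes changed in both directions. Besides EMILIN2 and TNC, 43 laminins and matrix glycoproteins included 11 higher and 9 lower genes (median 0.20). Those shares, 25.6% and 20.9%, lie near the 19.4% and 21.4% of all tested genes. LAMA1, a laminin chain of early basement membranes, had 75.6 and 77.4 CPM in the controls, 24.9 and 20.1 in the knockout and 57.6 and 62.5 in the knockdown (1.42 ± 0.11), whereas LAMA4 had 96.9 and 93.5, 75 and 70.9, and 38.5 and 34.2 in the same order (-1.005 ± 0.10). LAMA1 was thus lowest in the knockout and LAMA4 in the knockdown. Fibronectin (FN1) fell from 69.7 and 69 to 33.7 and 37.1 CPM (-0.97 ± 0.09). Of 29 collagens 11 were lower (7 without knockout replicate 2 or knockdown replicate 1) and 2 higher (1 without knockout replicate 1 or knockdown replicate 2, median -0.22), with COL6A1 at 31.8 and 36.5 against 18.7 and 18.2 CPM (-0.89 ± 0.12), COL4A1 of basement membranes at 37.9 and 38.3 against 21.8 and 23.5 (-0.75 ± 0.12), and COL12A1 rising from 1.57 and 2.5 to 6.43 and 5.84 (1.59 ± 0.34). Matrix enzymes and inhibitors were lower in 12 of 42 cases (28.6%) and higher in 9 (21.4%, median 0.10, from -0.05 to 0.15 over the settings), again near the shares of all genes, and the higher ones were 4 without knockout replicate 1 and 5 without knockdown replicate 2. Among them were ADAMTS1 (180.4 and 172 to 102 and 102 CPM, -0.79 ± 0.08) and the inhibitor TIMP3 (31.1 and 30.1 to 16.5 and 14.8, -0.97 ± 0.12).

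Of 16 integrins 6 were lower and 4 higher (median -0.21), and the 4 higher calls were 0 without knockout replicate 1, 1 without knockout replicate 2 or knockdown replicate 1 and 2 with either control library left out. ITGB5, which binds vitronectin with the alpha V chain, had 29.6 and 26.7 against 14.1 and 15.2 CPM (-0.94 ± 0.14). Cadherins and catenins had 3 genes in each direction of 12 tested (median 0.11), with CTNNA1 lower (308 and 309 to 196 and 176, -0.73 ± 0.08) and the desmosomal plakoglobin JUP higher (28.8 and 29 to 47.7 and 49.2, 0.75 ± 0.11). Epithelial genes were higher in 6 of 19 cases and lower in 2 (1 without knockout or knockdown replicate 2, median 0.28). ESRP2, an epithelial splicing regulator, had 5.34 and 3.79 CPM in the controls, 0.324 and 0.392 in the knockout and 2.37 and 2.98 in the knockdown (2.89 ± 0.47), and occludin (OCLN), a tight junction protein, had 13.1 and 12.9 against 26.7 and 27.7 (1.07 ± 0.15). Over all tested genes 19.4% were higher and 21.4% lower. The shares were 25% and 37.5% for integrins and 31.6% and 10.5% for epithelial genes. Those of cadherins and catenins, 25% each way, lay near the shares of all genes. Only 9 of 53 clustered protocadherin genes, whose isoforms mark individual neurons, passed the count filter, and 4 of these were higher. A gene could pass that filter through a single group. The 4 higher genes reached 10 counts in a library only in the knockdown. Their share among the tested genes was thus shaped by the filter and is not a result about the group. PCDHGA7 had 47 counts in the knockdown and 1 in the knockout (ratio 45.4, interval 7.77 to 1832), PCDHA10 had 32 against 2 (15.5, 3.95 to 133), and PCDHB5 24 against 1 (23.2, 3.78 to 954). The 4 calls were 2 without knockout replicate 2 or knockdown replicate 1 and 1 without knockdown replicate 2, and DESeq2 did not call PCDHB5 (adjusted p = 0.08) or PCDHGB1 (0.068). Isoforms of these clusters share their last exons, so their counts are uncertain.

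In most signalling groups members changed in both directions, as was the case over all tested genes (19.4% higher and 21.4% lower). The shares were 32.6% and 20.9% for axon guidance, 25% and 30% for the Hippo pathway and 30.8% and 23.1% for SMAD genes. Interferon-response genes had 3.23% and 35.5%. Calls in both directions were therefore no trait of these groups. Among 43 axon guidance genes 14 were higher and 9 lower (median -0.06, from -0.12 to 0.11 over the settings). The secreted repellent SLIT2 rose from 96 and 101 to 308 and 392 CPM (1.83 ± 0.10, adjusted p = 3.6e-11), with 89.6 and 88.4 in the controls, and semaphorin SEMA6A from 20.1 and 22.7 to 52.1 and 65.6 (1.46 ± 0.13). The receptor PLXNB2 fell from 52.1 and 55.6 to 24.2 and 30.5 CPM (-0.97 ± 0.12). In the Hippo pathway (5 higher, or 3 without knockout replicate 1, and 6 lower of 20, median 0.15, from -0.03 to 0.19), AMOT, a junctional YAP regulator, went from 893 and 928 to 293 and 325 CPM (-1.56 ± 0.08), the kinase LATS1 from 33.9 and 36.8 to 87.4 and 103 (1.43 ± 0.11), and the YAP target ANKRD1 from 2.4 and 2.16 to 11.5 and 10.8 (2.29 ± 0.27). SMAD genes were higher in 8 of 26 cases (4 without knockout replicate 1) and lower in 6 (3 without knockout replicate 2, median 0.12), with the inhibitor SMAD7 at 33.2 and 33 against 67.2 and 68.6 CPM (1.04 ± 0.11) and the receptor TGFBR1 at 65.7 and 67.9 against 35.9 and 39.5 (-0.83 ± 0.10). Interferon-response genes were lower in 11 of 31 cases and higher in 1 (0 without knockout replicate 1 and 2 without replicate 2, median -0.27), led by IFIT1, a sensor of viral RNA caps (19.3 and 14.8 to 3.63 and 3.16 CPM, -2.33 ± 0.21), and HLA-B, an antigen-presenting class I molecule (103 and 100.03 to 48.2 and 41.9, -1.17 ± 0.09), whose reads can be split among the class I genes.

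HOX genes, classical targets of MLL enzymes, were called in each direction in 7 of 37 cases (median 0.08, from -0.07 to 0.33 over the settings), close to the shares of all tested genes, and the higher ones were 3 without knockout replicate 1 and 13 after the length and GC correction. HOXA9 had 26 and 26.8 CPM in the knockout and 45.4 and 42.4 in the knockdown (0.73 ± 0.12), HOXB3 12.3 and 12.6 against 24.6 and 27.6 (1.06 ± 0.15), HOXB13 24.9 and 21.9 against 11.9 and 9.61 (-1.12 ± 0.15) and HOXC13 10.2 and 15.1 against 4.64 and 6.14 (-1.22 ± 0.23). Of 17 neuronal genes 5 were lower and 2 higher (median 0.03, of changing sign over the settings), and 1 was higher when any single library other than knockdown replicate 1 was left out. The neurofilament NEFL, a neuronal gene that 293 lines express, had 347 and 352 CPM in the controls, 156 and 153 in the knockout and 56.6 and 53.3 in the knockdown (-1.49 ± 0.08, adjusted p = 6.2e-11), and synaptophysin (SYP) had 19.2 and 18.8, 26.3 and 28.2, and 5.8 and 6.19 in the same order (-2.18 ± 0.16). Among 9 markers of 293T cells 5 were higher and 2 lower (median 0.43). Telomerase reverse transcriptase (TERT) was at 4.84 and 4.67 CPM in the controls, 0.832 and 1.42 in the knockout and 9.33 and 9.04 in the knockdown (3.03 ± 0.31), and the oncofetal RNA-binding protein IGF2BP1 at 97.1 and 85.5, 86.7 and 105, and 211 and 332 in the same order (1.51 ± 0.14). Of the 7 tested markers of other cell types, LRP2 was higher (27 and 23.1 to 75.7 and 104 CPM, 1.84 ± 0.13), as was the receptor PDGFRA (1.53 and 0.834 to 4.4 and 3.16, 1.67 ± 0.42).

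Called genes were unevenly placed along some chromosomes, in stretches that were picked after the values were seen. Of 252 genes on chromosome 8 from 50 Mb onward with an average log2 CPM above 2, 138 were higher in the knockdown and 26 lower, with a median of 0.38, against 2787 higher and 3374 lower of 11509 genes overall (24.2% higher, median -0.04). The 142 genes before 50 Mb had 37 higher (23 with either knockout library left out) and 39 lower (median 0.03). On chromosome 6 from 70 Mb onward 147 of 278 genes were higher and 27 lower (17 and 18 without knockout replicates 1 and 2, median 0.34), while before 60 Mb 55 of 328 were higher and 133 lower (median -0.20, or -0.14 for the 294 genes outside the histone list). On chromosome 11 between 40 and 50 Mb 26 of 42 genes were higher and 3 lower (median 0.42). Per library, with each gene centred on its mean over the 4 libraries, the chromosome 8 stretch had medians of -0.20 and -0.20 in the knockout, 0.23 and 0.13 in the knockdown and 0.28 and 0.29 in the control libraries. For chromosome 6 these were -0.16 and -0.17, 0.21 and 0.13, and 0.16 and 0.13, so that in both stretches the knockout libraries were the ones below the others. FABP5, PABPC1 and DERL1 lie in the chromosome 8 stretch and LATS1, LIN28B, TTK, EPHA7 and COL12A1 in that of chromosome 6, all higher in the knockdown, but MYC, SQLE, COL14A1 and LAMA4 in the same stretches were lower. Without the genes of chromosomes 6 and 8, 6449 of 16035 tested genes were called. Gene dosage was not measured, and its part in these results was not tested.

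**Figure D5:**
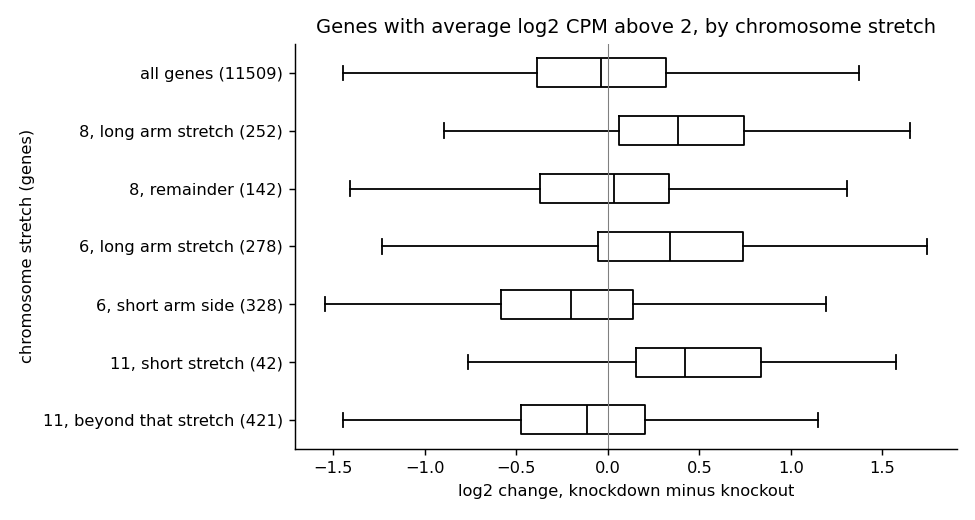
Log2 change, knockdown minus knockout, for genes with an average log2 CPM above 2 in chromosome stretches and in all genes, as boxes from the 1st to the 3rd quartile with the median inside and whiskers to the last gene within 1.5 times the box. The stretches of chromosomes 8, 6 and 11 have medians of 0.38, 0.34 and 0.42, against -0.04 for all 11509 genes.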

How the data were processed

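Stranded total RNA of 6 libraries was analysed. The deposited tables hold raw read counts per gene. Per the file headers they were made with featureCounts 2.0.1, strand setting 2, a minimum mapping quality of 10 and GENCODE release 34, whereas the submitters' processing notes give featureCounts 1.5.0-p1, beside FastQC 0.11.4, Trim Galore 0.6.10, STAR 2.7.5a, DESeq2 1.36.0 and the build hg38. Of 60669 genes, 17575 passed edgeR's filter on low counts. The counts as deposited were fitted with edgeR 4.0.16 (R 4.3.3, quasi-likelihood test, TMM scaling, a term per group). All 6 libraries entered the fit so that they shared 1 estimate of spread with 3 residual degrees of freedom, and the contrast was knockdown minus knockout. P-values were adjusted by Benjamini-Hochberg over all tested genes, and SE is the change over the square root of F. Scripts were tested on simulated data. Alternatives were other scaling, DESeq2 1.42.0, other filters, coding genes alone, the 4 compared libraries alone, spline offsets on exon length and GC content (17350 tested genes had a GC value, from GENCODE release 29, as were biotypes), a replicate block, each library left out, and chromosomes 6 and 8 left out.

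Named were PRMT1, KMT2B and KMT2D, the 12 coding and 3 other genes per direction with the largest called change at 1 CPM or more in the higher group and no overlap of groups, and up to 4 called genes of smallest adjusted p from each of 39 lists (1474 genes). Members and lists were chosen with earlier results of these data known. Outside that rule, and after their values were seen, were named ASNS, ATF3, ATF4, COL12A1, DDIT3, FKBP5, FN1, GAPDH, H1-1, H2AC21, H2AZ1, H2BC3, H2BC7, HIF1A, IGFBP2, KLF9, KMT2A, LDHA, NEAT1, PER1, SETD1A, SETD1B, SHISA2, SLC7A3, SQLE, TSC22D3, VEGFA, ZBTB16, ASH2L, HOTAIRM1, OIP5-AS1, the genes placed in chromosome stretches, and the stretches and the list of ZNF genes on chromosome 19 themselves. Some genes that the rule selects are not reported here. Promoter sequences came from RefSeq, GRCh38.p14, matched by symbol for 11823 tested genes. In 8 of these, motifs overlapped each other.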

Additional observations from a re-analysis of the deposited data

How the results depend on the processing

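Of 214 genes examined singly, 195 kept their direction and their call under every alternative that tested them (13 to 16) and none reversed. The number of called genes ran from 6449 to 7786 over the settings that left out no single library and from 5119 (without knockout replicate 1) to 7301 (without knockdown replicate 1) over those that left a library out. Of the counts over all genes, 1 moved by more than 1.5 times: genes higher by at least 2-fold in the knockdown numbered 1041 with all libraries and from 664 (without knockdown replicate 2) to 1139 (without knockdown replicate 1) when a library was left out. DESeq2 called 6614 genes, relative log expression scaling 7189, a fit without a count filter 7043, and the length and GC correction 7493, of which 53.7% were higher against 47.5% in the fit as reported. The settings did not test the same genes. The 6449 calls were among 16035 genes outside chromosomes 6 and 8, and the fit without a count filter tested 31617. Medians of 28 of the 39 lists kept their sign in every setting. The cause of these shifts was not tested.

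The labels give control, knockout and knockdown libraries the same replicate numbers without saying that a number marks a shared day or culture. With replicate number as a block, 7529 genes were called (3587 higher and 3942 lower), and 7786 with the block and the length and GC correction together. The deviations of same-numbered knockout and knockdown libraries from their group means had a correlation of 0.204, over 2 numbers, which is too few to say that the numbers pair the samples.

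Each group had 2 libraries. A floor of 3 counts per library stood at 0.143 CPM in the knockout and 0.138 in the knockdown, and where both groups lay under it no change was detectable at this depth.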

Other observations

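Of genes that glucocorticoid hormones are known to induce, 5 were picked after their values were seen, and no list of such genes was tested. TSC22D3, the glucocorticoid-induced leucine zipper gene, had 1073 and 1132 CPM in the controls, 541 and 521 in the knockout and 76.3 and 67.9 in the knockdown libraries, 7.37-fold lower in the knockdown than in the knockout (log2 change -2.88 ± 0.09, edgeR adjusted p = 2.8e-15). KLF9, a zinc finger factor, fell from 30.4 and 29.5 to 12.4 and 14.7 CPM (-1.14 ± 0.13), and FKBP5, a chaperone of the hormone receptor, from 36.4 and 40.9 to 24.5 and 27.9 (-0.56 ± 0.12). The clock gene PER1 rose from 9.2 and 9.57 to 12.4 and 17.4 CPM (0.67 ± 0.20), a call lost without knockout replicate 1 (adjusted p = 0.066) and without knockdown replicate 2 (0.18). ZBTB16 had overlapping groups, at 7.81 and 10.8 against 7.21 and 8.38 CPM (adjusted p = 0.39). SHISA2, which restrains Wnt and FGF receptors, fell from 65.7 and 57.5 to 7.74 and 5.75 CPM (-3.20 ± 0.14), and IGFBP2, a relative of IGFBP5, from 72 and 71.5 to 39.8 and 37.9 (-0.88 ± 0.10).

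Of 204 tested ZNF genes on chromosome 19, 44 were higher in the knockdown (21.6%, near the 19.4% of all tested genes) and 26 lower, with a median of 0.09. The higher ones numbered 27 without knockout replicate 1 and the lower ones 16 without knockout replicate 2. ZNF737 had 5.34 and 5.61 CPM in the controls, 1.16 and 0.589 in the knockout and 6.72 and 5.97 in the knockdown (2.85 ± 0.34), and ZNF536 had 22.9 and 23.5, 27.4 and 28.8, and 6.87 and 7.33 (-1.98 ± 0.15). The knockout libraries stood apart for the former and the knockdown libraries for the latter. Transcripts whose biotype is still to be experimentally settled were higher in 31 of 177 cases and lower in 0 (median 0.64), where all tested genes were higher in 19.4% and lower in 21.4%, and snRNA genes were higher in 10 of 40 and lower in 0 (median 0.68). The higher transcripts of that biotype were 17 without knockout replicate 1 and 10 without knockdown replicate 2, and the higher snRNA genes 5 without knockout replicate 2 and 2 without knockdown replicate 1. Multi-copy snRNA genes are uncertain, since reads that fit several copies were left out by the mapping quality minimum. Transcripts of both kinds could pass the count filter through a single group. Their splits and medians can thus be shaped by the filter and are not a result about either kind.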
